A study of Homo sapiens with 6 samples.

Results

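Kinesins, tubulins, tubulin cofactors and stathmins were taken from the gene table of MV4-11 cells by their symbols. They are the motors, the building blocks and the folding and sequestering proteins of microtubules. All symbols of KIF followed by a digit or by C, and those beginning with TUBA, TUBB, TUBG, TUBD or TUBE, were included, together with TBCA to TBCE and STMN1 to STMN4, which matched 81 of the 20348 genes. The 63 genes with a summed count of at least 10 over the 6 samples were kept, and of the 18 others 9 had no count at all. By role they were 12 mitotic kinesins, 15 transport kinesins, 6 other kinesins, 5 alpha tubulins, 8 beta tubulins, 9 gamma, delta and epsilon tubulins and gamma-tubulin complex (TUBGCP) genes, 5 cofactors, 2 stathmins and the alpha tubulin pseudogene TUBA3FP. KIF2A, which also acts on the spindle, was counted among the other kinesins.

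MV4-11 is an established human acute myeloid leukemia (AML) line, and WNK463 is a compound that blocks the kinases of the WNK family. RNA-seq of bead-captured mRNA compared 3 Control samples, untreated cells of the line, with 3 samples given 1 μM WNK463 for 48 h. Whether the Control cells received the solvent is not stated. The labels do not say that the samples came from separate cultures, so that the p-values measure only the spread between these samples, which may be technical.

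Total counts per sample lay between 14915745 and 17411780. The table gives an estimated count and a TPM value (a level per transcript length, summing to 1000000 in each sample) for each gene and sample. CPM are counts per 1000000 counts of the normalized library, log2 fold changes are WNK463 against Control, and a gene was called at an adjusted p below 0.05 in edgeR's quasi-likelihood test, adjusted by Benjamini-Hochberg over 11973 tested genes. The TMM factors, which scale the libraries, were 0.944 to 0.951 in Control and 1.05 to 1.06 with WNK463, and scaling by total counts in their place shifted the median of all genes by 0.15 on the log2 scale, from 0.02 to 0.17. On the TPM scale, tested with limma on log2(TPM + 1), that median was 0.16, and differences in TPM read higher by about this amount. Replicates varied by 5.21% (common biological coefficient of variation). Of 9 myeloid markers 8 lay at 50.8 CPM or more in every sample. In the test 4 of the 9 were higher and 4 lower, and their sum went from 2443 to 2583 CPM in Control to 1555 to 1596 CPM with WNK463. LYZ was at -2.22, PTPRC at 1.20 and MPO at -2.50 on the log2 scale, and MPO was low, at 7.47 ± 0.423 CPM in Control and 1.31 ± 0.479 CPM with WNK463 (SD, n = 3 each). The T cell, B cell and erythroid markers, each list by itself, summed to at most 0.0638, 0.766 and 0 CPM in a sample. EPCAM, CDH1, ELAVL3, PF4 and COL3A1 were at 0. KRT18 went from 10.1 ± 0.352 to 6.31 ± 0.528 CPM, ITGA2B from 15.9 ± 1.78 to 41.6 ± 1.43 CPM and MAP2 from 0.226 ± 0.228 to 1.10 ± 0.228 CPM. PDGFRB, a fibroblast marker, rose from 0.602 ± 0.329 to 1.30 ± 0.332 CPM (log2 fold change 1.12, edgeR adjusted p = 0.026), and the fibroblast markers summed to 0.366 to 1.17 CPM in Control and 1.22 to 1.75 CPM with WNK463. The part of these markers in the results was not tested.

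Microtubules are hollow filaments built from dimers of alpha and beta tubulin. Folding of both tubulins needs the cytosolic chaperonin, after which the cofactors TBCA to TBCE join them into a dimer. Gamma tubulin sits in a ring complex that starts new filaments, and stathmins bind free dimers. Kinesins use ATP to walk along microtubules or to take their ends apart, and in a dividing blood cell one group of them builds the spindle and separates the daughter cells, while another carries vesicles, organelles and RNA. Cells also limit their own tubulin mRNA, because the factor TTC5 recognises the first amino acids of a tubulin as it leaves the ribosome and brings the mRNA to decay.

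The coding sequence of the tubulins begins with these amino acids, and its first 30 bases are shown so that the members that fell can be compared there with those that did not. Sequences are from GENCODE 29 on GRCh38, 5′ to 3′, with the first 12 coding bases, which encode the first 4 amino acids, in capitals.
TUBA1B (chromosome 12, minus strand, start codon 49131298 to 49131300): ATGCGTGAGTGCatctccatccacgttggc
TUBA4A (chromosome 2, minus strand, start codon 219253856 to 219253858): ATGCGTGAATGCatctcagtccacgtgggg
TUBA8 (chromosome 22, plus strand, start codon 18110866 to 18110868): ATGCGGGAATGCatatcagtccacgtgggc
TUBB (chromosome 6, plus strand, start codon 30720507 to 30720509): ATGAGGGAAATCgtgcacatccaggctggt
TUBB6 (chromosome 18, plus strand, start codon 12308293 to 12308295): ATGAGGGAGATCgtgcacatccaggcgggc
TUBB3 (chromosome 16, plus strand, start codon 89923402 to 89923404): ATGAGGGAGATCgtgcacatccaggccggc
TUBG1 (chromosome 17, plus strand, start codon 42609738 to 42609740): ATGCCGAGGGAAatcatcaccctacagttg
TUBE1 (chromosome 6, minus strand, start codon 112087432 to 112087434): ATGACCCAGTCGgtggtcgtacaggtcggc
All 5 alpha tubulins encode the same first 4 amino acids as TUBA1B, and TUBB1, TUBB3, TUBB4B and TUBB6 encode the same first 4 as TUBB. TUBB4B has the same 12 bases as TUBB, and TUBB6 and TUBB3 have 11 of the 12 in common with it. The gamma, delta and epsilon tubulins begin differently. In TUBG1, 4 of the 12 bases are those of TUBB at the same place.

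The mRNA of 6 alpha and beta tubulins fell by more than 2-fold with WNK463 in edgeR's test (5 with total counts, where TUBA4A was just short of it, and 3, TUBA1B, TUBB and TUBB4B, with limma on log2(TPM + 1)), most mitotic kinesins fell by a smaller amount, and transport kinesins were more often higher than lower. Of the 63 members 59 passed the filter on low counts, and 40 of these were called, which is 67.8% against 70.8% of all tested genes. Of the 59, 14 were higher and 26 lower, where 35.5% of all genes were called higher and 35.3% lower. Total-count scaling gave 20 higher and 23 lower. At a fold change of at least 2 the members had 3 higher and 9 lower calls, and 15.2% of all genes passed, 9.62% higher and 5.55% lower. The values of the groups did not overlap in 40 of the 59 members, against 73.5% of all genes. The median log2 fold change of the members was -0.11 and that of all tested genes 0.02, and the members' median turned to 0.04 with scaling by total counts and was -0.07 without WNK463 replicate 2. Bulk RNA cannot tell fewer cells of a kind, such as cells in mitosis, from less RNA per cell. TUBB2A, TUBB8, TUBB8B and KIF7 were removed by the filter on low counts and are given with the fits without it.

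**Figure D1:**
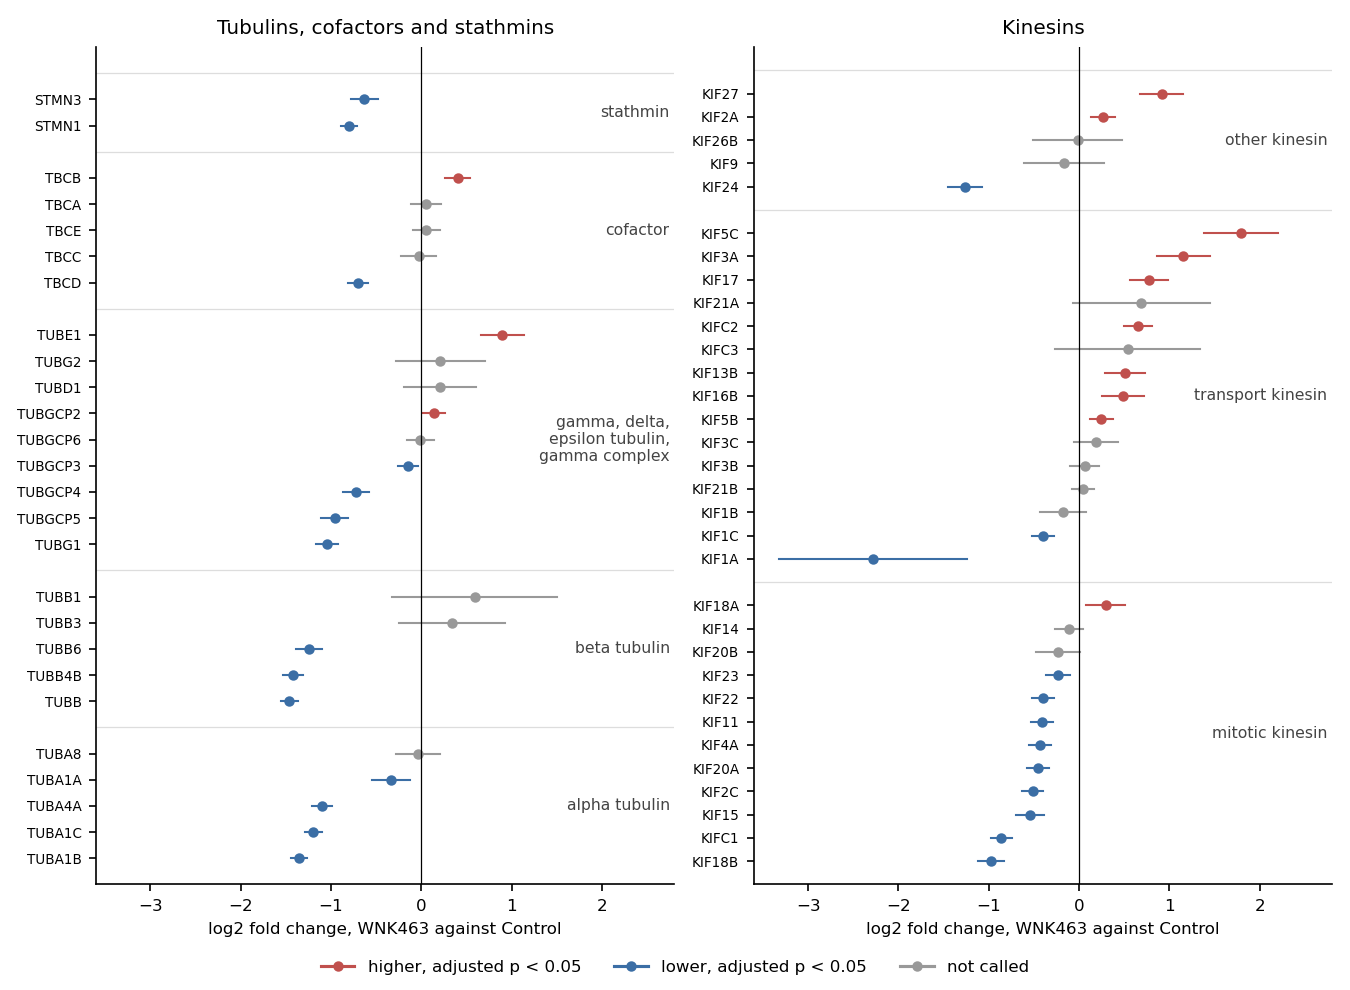
Log2 fold changes (WNK463 against Control, x axis) of 58 tested members by role, with 95% confidence intervals from edgeR as lines (TUBA3FP is not drawn). The 6 alpha and beta tubulins on the far left lie between -1.46 and -1.10, the called mitotic kinesins other than KIF18A lie between -0.98 and -0.23, and KIF5C and KIF3A are the transport kinesins above 1.

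Of the 5 tested alpha tubulins 4 fell, with a median log2 fold change of -1.10. This is 80% called, beside 70.8% of all tested genes, of which 35.3% were called lower. TUBA1B, the most abundant alpha tubulin, lies on chromosome 12 of GRCh38 from 49127782 to 49131397 and had 2838, 2830.0 and 2810.4 TPM in the Control samples and 1287, 1258 and 1256 TPM with WNK463. Every WNK463 value was below every Control value, and the log2 fold change was -1.35 (SE 0.04, edgeR adjusted p = 2.7e-14). TUBA1C, from the same gene cluster, had 695, 687 and 683 TPM in the Control samples and 345, 339 and 348 TPM with WNK463, without overlap of the groups and with a log2 fold change of -1.20 (SE 0.04, edgeR adjusted p = 2.1e-13). TUBA4A, on chromosome 2 from 219249711 to 219278170, had 193, 197 and 196 TPM in the Control samples and 96.1, 95.02 and 108 TPM with WNK463. This was also a separation of the groups, with a log2 fold change of -1.10 (SE 0.05, edgeR adjusted p = 4.0e-12).

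TUBA1A and TUBA8 were low and moved little. TUBA1A had 19.4, 16.1 and 18.7 CPM in the Control samples and 14.6, 14.4 and 14.1 CPM with WNK463, and its log2 fold change was -0.34 (SE 0.10, edgeR adjusted p = 0.0056). On the TPM scale the difference of TUBA1A was -0.12 and was not called with limma (adjusted p = 0.25), and with scaling by total counts it was not called either (-0.18, adjusted p = 0.1 in edgeR). TUBA8 had 10.5, 10.5 and 10.9 CPM in the Control samples and 10.5, 9.59 and 10.98 CPM with WNK463, so that the groups overlapped, and its log2 fold change of -0.04 had a 95% interval of -0.28 to 0.20. The direction of TUBA8 turned on the TPM scale, to 0.23 (limma adjusted p = 0.049), and with total counts, to 0.11.

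TUBB, the most abundant beta tubulin, lies on chromosome 6 from 30720201 to 30725426 and had 2072, 2022 and 2016 TPM in the Control samples and 872, 824 and 839 TPM with WNK463. The groups were far apart, and the log2 fold change of -1.46 (SE 0.05, edgeR adjusted p = 1.9e-14) was the largest decrease among the alpha and beta tubulins. TUBB4B, a beta tubulin made in most tissues, had 651, 642 and 619 TPM in the Control samples and 277, 255 and 286 TPM with WNK463. Its log2 fold change was -1.42 (SE 0.05, edgeR adjusted p = 1.8e-13). TUBB6 had 83.3, 86.1 and 88.6 TPM in the Control samples and 44.7, 43.2 and 49.6 TPM with WNK463, again without overlap, and a log2 fold change of -1.24 (SE 0.07, edgeR adjusted p = 2.1e-11).

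The remaining beta tubulins were scarce. TUBB3, best known from neurons, was at 2.08 ± 0.396 to 2.91 ± 0.434 TPM (SD, n = 3 each) with overlapping CPM values and a log2 fold change of 0.34 (95% interval -0.25 to 0.92). TUBB1, the form of platelets and megakaryocytes, was at 0.332 ± 0.0826 to 0.580 ± 0.237 TPM and was not called either, at 0.59 (-0.32 to 1.51). TUBB2A had 5, 4 and 5 counts in Control and 8, 5 and 0 with WNK463. TUBB8 had 2 counts in each Control sample and 11, 8 and 7 with WNK463, and TUBB8B had 0 in each Control sample and 3, 7 and 8 with WNK463. Of the 10 tested alpha and beta tubulins, 7 fell and 0 were called higher in edgeR's test, 0 were higher at an unadjusted p below 0.05, and with limma on TPM 1, TUBA8, was called higher. Calls in edgeR's test made up 70% of the 10, beside 70.8% of all tested genes, of which 35.3% were called lower. Without the filter on low counts, TUBB8 and TUBB8B were called higher (edgeR adjusted p = 0.027 and 0.0017) and TUBB2A was not called (adjusted p = 0.85), and limma without a filter made the same 3 decisions. The median of the 10 was -1.15.

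**Figure D2:**
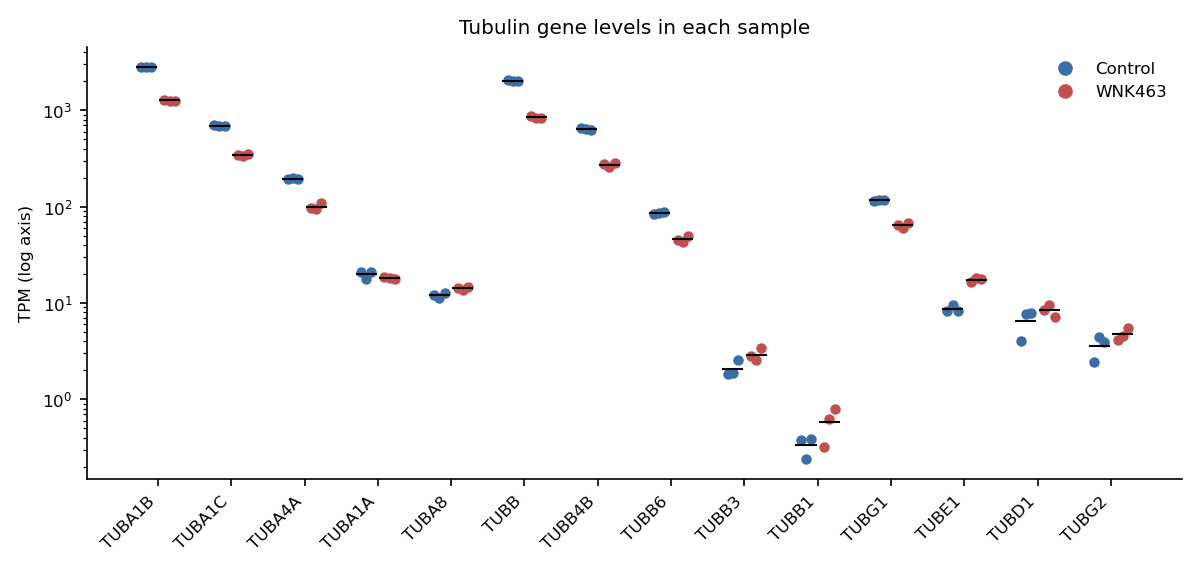
Level of each tubulin gene (TPM, log axis) in every sample, with Control in blue, WNK463 in red and the group mean as a bar. TUBA1B, TUBA1C, TUBA4A, TUBB, TUBB4B, TUBB6 and TUBG1 drop without overlap of the groups, and TUBE1 rises from a mean of 8.66 to 17.5 TPM.

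The reads of near-identical tubulin genes can be assigned to one another. Among all stretches of 75 bases of the annotated transcripts, 48.4% of those of TUBA1B occur in another gene, first of all TUBA1A, against 27.1% for TUBA1A, 17.01% for TUBA1C, 3.02% for TUBA4A, 8.44% for TUBB, 5.37% for TUBB4B and 0 for TUBB6. TUBA8 shares 65.7% with PEX26 and TUBB3 89.2% with the overlapping readthrough gene AC092143.1, so that these 2 levels are uncertain. The scarce TUBB2A shares 60.4%, TUBB8B 52.0% and TUBB8 30.1% with other genes, and TUBA3FP shares 49.5% with another annotated entry of the same name. Their few counts, and the calls that rest on them, are uncertain for this reason too. TUBA1A and TUBA1C overlap on opposite strands, and whether the counting used the strand is not stated.

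Summed over the isotypes the alpha tubulins went from 3742 ± 18.3 to 1743 ± 18.9 TPM and the beta tubulins from 2763 ± 42.01 to 1169 ± 36.8 TPM (SD, n = 3 each). In each group the 3 values lay apart from those of the other. The exact two-sided permutation test over samples gave p = 0.1 for both, the smallest value that 3 against 3 samples allow. The reads of alpha and beta tubulins made up 67.3% to 69.2% of all counts of the members in Control and 49.3% to 50.6% with WNK463. All members together took 0.907% to 0.912% of the counts of a Control sample and 0.528% to 0.532% of a WNK463 sample.

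The leading isotypes changed little in proportion. TUBA1B supplied 75.5 ± 0.0661 to 72.7 ± 0.599% of alpha tubulin TPM, a difference of -2.83 percentage points. TUBB supplied 73.7 ± 0.235 to 72.3 ± 1.05% of beta tubulin TPM, a difference of -1.43. The share of TUBB4B overlapped between the groups, at 23.1 ± 0.322 to 23.3 ± 0.817% (exact permutation p = 0.9, n = 3 each). The shares of TUBA1C, TUBA4A and TUBB6 were higher with WNK463, and that of TUBA1A went from 0.529 ± 0.0473 to 1.04 ± 0.0164%. TUBB6 was at 3.11 ± 0.143 to 3.92 ± 0.251%. The small shares of TUBA8 and TUBB3, whose levels are uncertain, were higher with WNK463 too. TUBA8 went from 0.321 ± 0.0199 to 0.815 ± 0.0222% of alpha tubulin TPM, and TUBB3 from 0.0753 ± 0.0153 to 0.249 ± 0.0338% of beta tubulin TPM.

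The 9 gamma, delta and epsilon tubulin and TUBGCP genes had 4 lower and 2 higher calls and a median of -0.01. That median turned to 0.14 with scaling by total counts. Calls made up 66.7% of the 9, beside 70.8% of all tested genes, of which 35.5% were called higher and 35.3% lower. TUBG1, the gamma tubulin of most cells (chromosome 17, 42609676 to 42615234), had 101, 99.9 and 101 CPM in the Control samples and 49.1, 45.6 and 52.2 CPM with WNK463. No values overlapped, and the log2 fold change of -1.04 (SE 0.06, edgeR adjusted p = 4.6e-11) was the only one of this group past 2-fold. TUBG1 and its neighbour TUBG2 share 20.4% of the stretches of TUBG1. TUBG2, a near copy of low level, was not called, with 2.37, 4.18 and 3.72 CPM in the Control samples and 3.50, 3.78 and 4.60 CPM with WNK463 and a log2 fold change of 0.21 (95% interval -0.28 to 0.70).

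Of the 3 subunits found only in the large gamma-tubulin ring complex TUBGCP4 and TUBGCP5 fell. TUBGCP5 had 47.98, 48.4 and 45.1 CPM in the Control samples and 25.00, 24.2 and 23.4 CPM with WNK463 and fell by 0.96 on the log2 scale (SE 0.07, edgeR adjusted p = 1.3e-09). TUBGCP4 had 78.00, 85.3 and 85.9 CPM in the Control samples and 54.9, 49.9 and 46.3 CPM with WNK463, also without overlap, at -0.72 (SE 0.07, edgeR adjusted p = 3.1e-08). TUBGCP6, the remaining member found only in the large ring, was at -0.01 with a 95% interval of -0.16 to 0.14, and at 0.21 with limma on log2(TPM + 0.1). The core subunits TUBGCP2 and TUBGCP3 had log2 fold changes of 0.14 (edgeR adjusted p = 0.039) and -0.15 (adjusted p = 0.017). Both calls depended on single samples or on the scaling. TUBGCP2 was not called with DESeq2 (adjusted p = 0.051) or without Control replicate 2 (0.10, adjusted p = 0.22 in edgeR), and TUBGCP3 was at 0.0033 with total counts. The ratio of TUBG1 to TUBGCP3 in TPM was 2.08, 1.91 and 2.09 in the Control samples and 1.16, 1.01 and 1.20 with WNK463.

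TUBE1, the epsilon tubulin of centrioles, had 8.52, 7.89 and 8.54 CPM in the Control samples and 13.8, 16.1 and 16.7 CPM with WNK463, every WNK463 value being higher, and a log2 fold change of 0.90 (SE 0.11, edgeR adjusted p = 1.6e-06). TUBD1, the delta tubulin, had 4.20, 7.54 and 7.44 CPM in the Control samples and 7.07, 8.20 and 6.77 CPM with WNK463. The low value was Control replicate 1, the groups overlapped, and the log2 fold change of 0.21 had a 95% interval of -0.19 to 0.61.

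Of the 5 tubulin cofactors 1 rose, 1 fell and 3 were not called. This is 40% called, beside 70.8% of all tested genes. TBCD, which holds beta tubulin and with TBCE forms the core of the dimer assembly machine, had 118, 115 and 112 CPM in the Control samples and 69.3, 72.3 and 70.03 CPM with WNK463. It fell without overlap, by 0.70 on the log2 scale (SE 0.05, edgeR adjusted p = 1.6e-09). TBCB, which receives alpha tubulin from the chaperonin, had 48.7, 46.6 and 42.8 CPM in the Control samples and 58.2, 61.9 and 62.8 CPM with WNK463 and rose by 0.40 (SE 0.07, edgeR adjusted p = 2.5e-05). TBCA, which receives beta tubulin and is the most abundant cofactor at 178 ± 20.4 TPM in Control, had a log2 fold change of 0.06 (95% interval -0.11 to 0.22). TBCC was at -0.03 (-0.22 to 0.17) and TBCE at 0.05 (-0.09 to 0.20). With scaling by total counts TBCA and TBCE were called higher as well, which gave 3 higher and 1 lower.

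The summed TPM of the 5 cofactors divided by that of the alpha and beta tubulins was 0.0577, 0.0596 and 0.0633 in the Control samples and 0.150, 0.171 and 0.162 with WNK463, a ratio 2.68 times as high with WNK463. The cofactors themselves went from 392 ± 15.1 to 469 ± 22.4 TPM, to 1.20 times the Control level, and the alpha and beta tubulins to 0.448 times. The rise of the cofactors is 0.26 on the log2 scale, where the median of all genes on the TPM scale was 0.16. From TMM-scaled counts the median of the cofactors was 0.05. The 8 chaperonin subunits went from 3783 ± 46.9 to 3487 ± 39.5 TPM, and their ratio to alpha and beta tubulins rose from 0.582 to 1.20. The ratio of alpha to beta tubulin moved much less, from 1.35 ± 0.0142 to 1.49 ± 0.0318 (SD, n = 3 each), and its groups did not overlap either. Such ratios are formed within a sample and do not depend on the scaling between samples, and they were chosen after the values were seen. Over 27 sums, shares and ratios compared in this way the exact two-sided permutation p was 0.1 for 26 (0.104 after Benjamini-Hochberg adjustment) and 0.9 for the share of TUBB4B.

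**Figure D3:**
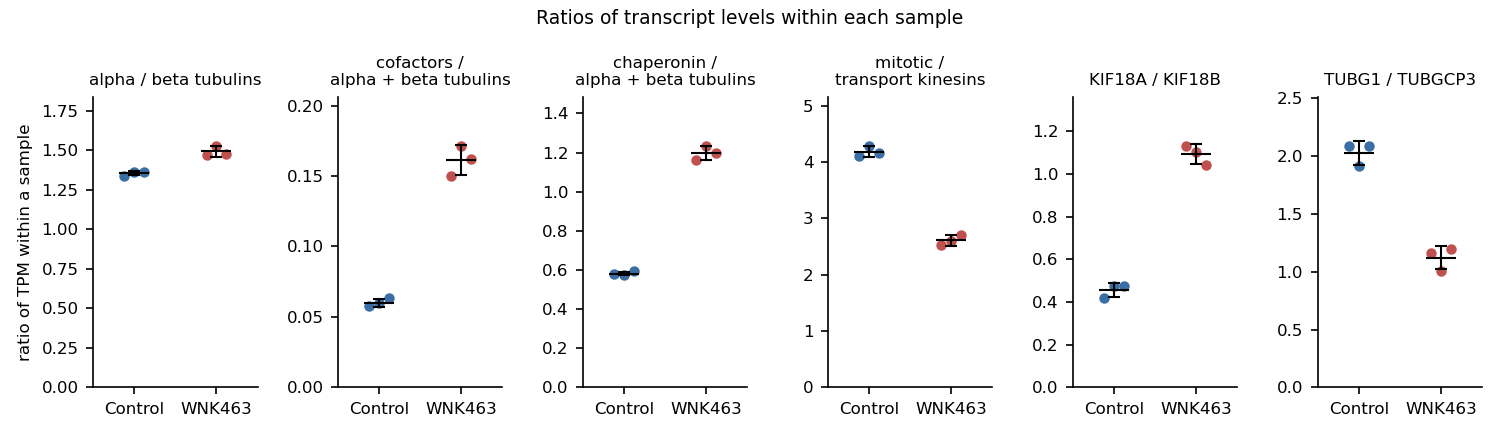
Ratios of TPM formed within each sample (y axes start at 0), with the 3 Control samples in blue, the 3 WNK463 samples in red, and mean and SD as bars. The groups do not overlap in any of the 6 ratios, and the cofactor to tubulin ratio rises from 0.0602 to 0.161.

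Both stathmins with a summed count of at least 10 fell, where 35.3% of all tested genes were called lower. STMN4, under this minimum, had 0 counts in each Control sample and 2, 2 and 1 with WNK463. STMN1, which binds free tubulin dimers and promotes the collapse of microtubule ends, had 469.7, 472 and 481 CPM in the Control samples and 266, 274 and 276 CPM with WNK463, and its log2 fold change was -0.80 (SE 0.04, edgeR adjusted p = 2.4e-11). STMN3 had 55.95, 52.2 and 56.2 CPM in the Control samples and 36.8, 32.3 and 37.1 CPM with WNK463 and was at -0.63 (SE 0.07, edgeR adjusted p = 2.8e-07). The fall of STMN1 was smaller than that of its ligand, and the ratio of STMN1 to alpha and beta tubulin TPM was 0.123, 0.128 and 0.131 in the Control samples and 0.182, 0.197 and 0.186 with WNK463.

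Of the 12 mitotic kinesins, 9 fell, 1 rose and 2 were not called, with a median log2 fold change of -0.42 and 0 past 2-fold. This is 83.3% called, against 70.8% of all tested genes, of which 35.3% were called lower. The median of the 12 was -0.27 with total counts and -0.19 on the TPM scale, with 8 and 7 lower calls. With KIF2A, which rose, and KIF24, which fell, counted as mitotic, 12 of 14 were called. KIF18B, which shortens astral microtubules at their plus ends, had 51.4, 52.3 and 54.6 CPM in the Control samples and 26.9, 26.8 and 26.8 CPM with WNK463. The groups lay far apart and the log2 fold change was -0.98 (SE 0.07, edgeR adjusted p = 4.3e-10). KIFC1, a minus-end directed motor that bundles spindle microtubules and clusters centrosomes, had 107, 106 and 106 CPM in the Control samples and 56.2, 60.9 and 58.4 CPM with WNK463, and its log2 fold change was -0.86 (SE 0.05, edgeR adjusted p = 1.7e-10). KIF2C, a depolymerase at kinetochores that corrects wrong attachments, and KIF22, a motor on chromosome arms, had the highest levels of the mitotic kinesins. KIF2C went from 118 ± 3.82 to 87.02 ± 7.32 TPM and KIF22 from 119.8 ± 6.75 to 106 ± 4.92 TPM (SD, n = 3 each). Their log2 fold changes from the counts were -0.51 (SE 0.06, edgeR adjusted p = 2.3e-07) and -0.40 (SE 0.06, edgeR adjusted p = 5.2e-06).

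The motors that push the spindle poles apart fell by similar amounts. KIF11, the main one, had 139, 159.7 and 164 CPM in the Control samples and 117, 114 and 117 CPM with WNK463. Its log2 fold change was -0.41 (SE 0.06, edgeR adjusted p = 7.1e-06). KIF15, which can take over from KIF11, had 65.9, 79.1 and 82.3 CPM in the Control samples and 52.8, 51.98 and 50.6 CPM with WNK463, at -0.55 (SE 0.07, edgeR adjusted p = 3.0e-06). The KIF15 difference was not called on the TPM scale, which gave -0.07 (limma adjusted p = 0.66) and on which WNK463 replicate 1, at 37.2 TPM, lay above all Control samples. Among the motors of the central spindle and of cell separation, KIF20A was at -0.45 (edgeR adjusted p = 1.6e-06), KIF4A at -0.43 (3.2e-06) and KIF23 at -0.23 (0.0037). The KIF23 call was lost with total counts (-0.08, adjusted p = 0.27 in edgeR) and on the TPM scale.

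The calls of KIF20B, KIF14 and KIF18A changed when single libraries were left out. KIF20B, a cytokinesis motor, had 68.3, 87.3 and 108 CPM in the Control samples and 77.2, 81.6 and 65.3 CPM with WNK463. Control replicate 1 was the low Control value, and without it the log2 fold change went from -0.23 (edgeR adjusted p = 0.076) to -0.39 (adjusted p = 1.5e-04), while without Control replicate 3, the high one, it was -0.07 (adjusted p = 0.54). KIF14, at -0.11 (adjusted p = 0.2 in edgeR), was called without Control replicate 1, at -0.17 (adjusted p = 0.039), and its direction turned with total counts, to 0.04. KIF18A, which damps the movement of chromosomes on the spindle, had 17.8, 22.8 and 23.5 CPM in the Control samples and 27.8, 26.7 and 24.1 CPM with WNK463. Its groups did not overlap, and it was the only one of the 12 called higher, at 0.29 (SE 0.10, edgeR adjusted p = 0.015). KIF2A and CENPE, which were not counted among the 12, rose too. Without Control replicate 1 the log2 fold change of KIF18A was 0.17 (adjusted p = 0.097 in edgeR). KIF18A also missed the threshold without WNK463 replicate 1 (0.25, adjusted p = 0.075) or replicate 2 (0.28, adjusted p = 0.050). Control replicate 1 gave the lowest Control value in 9 of the 12 mitotic kinesins, and the share over all genes was not counted. Over all genes its counts also differed more from Control replicates 2 and 3 (chi-square per degree of freedom 4.73 and 7.13) than those did from each other (2.64).

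KIF18A and KIF18B are the 2 members of the kinesin-8 family found here, and their levels crossed. In TPM the ratio of KIF18A to KIF18B was 0.419, 0.476 and 0.474 in the Control samples and 1.13, 1.10 and 1.04 with WNK463, without overlap and 2.40 times as high with WNK463 (2.30 without Control replicate 1). The exact two-sided permutation test gave p = 0.1 (n = 3 each), the smallest value possible. Their promoters are shown because cell cycle genes often carry a CHR element (TTTGAA) and CCAAT boxes near their start. The sequences are RefSeq promoters on GRCh38.p14, from 250 bases before to 50 after the gene start, on the gene's strand and with both motifs in capitals.
KIF18A (chr11:28108107-28108406, minus strand): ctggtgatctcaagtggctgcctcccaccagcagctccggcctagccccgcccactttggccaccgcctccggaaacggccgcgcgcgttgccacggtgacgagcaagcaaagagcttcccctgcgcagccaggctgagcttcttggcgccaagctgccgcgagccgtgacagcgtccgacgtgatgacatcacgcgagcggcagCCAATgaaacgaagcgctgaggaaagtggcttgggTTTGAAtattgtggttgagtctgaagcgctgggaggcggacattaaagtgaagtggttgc
KIF18B (chr17:44947724-44948023, minus strand): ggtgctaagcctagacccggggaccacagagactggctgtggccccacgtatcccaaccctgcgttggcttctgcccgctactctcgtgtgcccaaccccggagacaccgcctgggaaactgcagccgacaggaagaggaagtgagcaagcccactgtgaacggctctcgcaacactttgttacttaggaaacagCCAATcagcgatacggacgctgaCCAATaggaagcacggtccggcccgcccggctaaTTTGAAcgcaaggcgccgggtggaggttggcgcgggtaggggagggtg
Both windows hold the letters TTTGAA on the gene's own strand, beginning 10 bases before the start in KIF18A and 2 bases after it in KIF18B. A CCAAT lies 45 bases before the start in KIF18A, and in KIF18B 2 lie 55 and 32 bases before it. The promoter windows of 55 members were matched in RefSeq. Counting both strands, TTTGAA was found in 9 of 12 mitotic kinesins against 18.2% of 27305 genes, CCAAT in 10 of 12 against 39.7%, and both in 8 of 12 against 7.26%. Of 11 transport kinesins 1 held TTTGAA and 4 held CCAAT. Among the alpha and beta tubulins, TUBA1C and TUBB4B held both. A gene counted if any of its RefSeq promoters held the motif. As 35116 promoters were read for the 27305 genes, genes with several promoters had more chances of a match. These are matches of letters and not measured sites. Of the mitotic kinesins, KIF20A, KIF22 and KIF2C held no TTTGAA, and KIF15 and KIF2C no CCAAT.

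The cell cycle genes taken as a reference moved with the mitotic kinesins. In edgeR's test 11 of 12 such genes were lower and 0 higher, also at an unadjusted p below 0.05 (9 and 0 with total counts), with a median of -0.66, and they summed to 3854 to 4079 CPM in the Control samples and 2395 to 2486 CPM with WNK463. Calls made up 91.7% of these 12, beside 70.8% of all tested genes, of which 35.3% were called lower. PLK1, a mitotic kinase, was at -0.69 (edgeR adjusted p = 8.5e-10), CDC20, which activates the anaphase-promoting complex, at -0.80 (3.3e-10), CCNB1, the mitotic cyclin, at -0.23 (3.5e-04) and CCNB2 at -0.10 (0.097). The genes of S phase among them had fallen most, with MCM2 at -1.92 (SE 0.05, edgeR adjusted p = 2.2e-15) and PCNA at -0.82 (SE 0.05, edgeR adjusted p = 8.6e-11). The part of this change in the levels of the kinesins and tubulins was not tested.

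**Figure D4:**
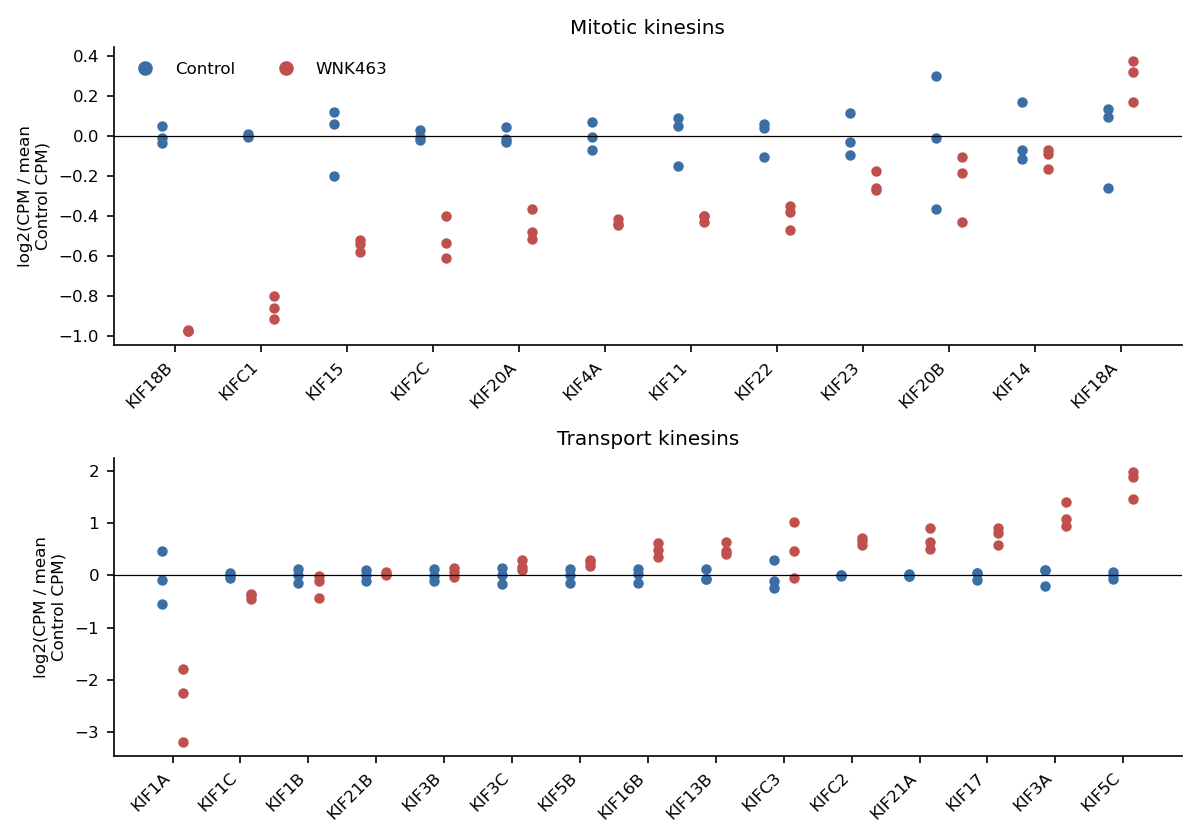
CPM of each mitotic kinesin (top) and transport kinesin (bottom) in every sample, as log2 of the ratio to the mean of the Control samples, with Control in blue and WNK463 in red. The axes differ in range, and KIF18A on the far right is the mitotic kinesin whose WNK463 values lie above all Control values.

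Of the 15 transport kinesins, 7 rose, 2 fell and 6 were not called, with a median log2 fold change of 0.49, or 0.27 without WNK463 replicate 3. This is 60% called, against 70.8% of all tested genes, of which 35.5% were called higher and 35.3% lower. Scaled by total counts, 11 were higher and 2 lower, and with that scaling the median of all genes was itself 0.17. KIF5C, a heavy chain of conventional kinesin that is abundant in neurons, lies on chromosome 2 from 148875250 to 149026759 and had 2.44, 2.19 and 2.32 CPM in the Control samples and 9.18, 8.55 and 6.38 CPM with WNK463. All WNK463 values were higher and the log2 fold change of 1.79 (SE 0.19, edgeR adjusted p = 2.0e-07) was the largest rise among the 59 members that passed the filter, from a low level. KIF5B, the heavy chain of most other cells and the most abundant transport kinesin in TPM, had 136, 150.3 and 164 CPM in the Control samples and 179, 184 and 171 CPM with WNK463. It rose by 0.24 (SE 0.06, edgeR adjusted p = 0.0015). KIF5C reached 0.0515 of the TPM of KIF5B with WNK463, from 0.0194 in Control.

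KIF3A, a motor of the heterotrimeric kinesin-2 that serves cilia and vesicles, had 7.12, 5.76 and 7.14 CPM in the Control samples and 14.1, 17.7 and 12.9 CPM with WNK463, and its log2 fold change was 1.15 (SE 0.14, edgeR adjusted p = 8.6e-07). Its partner KIF3B had 31.1, 36.1 and 32.99 CPM in the Control samples and 36.7, 35.1 and 32.6 CPM with WNK463. The groups of KIF3B overlapped, with a log2 fold change of 0.06 and a 95% interval of -0.10 to 0.22. The alternative partner KIF3C was at 0.19 (-0.05 to 0.43). In TPM the ratio of KIF3A to KIF3B was 0.313, 0.235 and 0.267 in the Control samples and 0.533, 0.669 and 0.509 with WNK463. KIFAP3, the subunit that links this motor to its cargo, rose with KIF3A, from 16.5 ± 0.646 to 38.9 ± 1.75 CPM (SD, n = 3 each), and the fitted difference was 1.24 (SE 0.08, edgeR adjusted p = 1.9e-10).

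The other transport kinesins that rose were KIF17, KIFC2, KIF13B and KIF16B. KIF17, the kinesin-2 that works without a partner, had 15.5, 14.2 and 15.7 CPM in the Control samples and 28.4, 22.6 and 26.6 CPM with WNK463 and was at 0.77 (SE 0.10, edgeR adjusted p = 1.7e-06). KIFC2, a minus-end directed motor, had 22.8, 23.05 and 22.6 CPM in the Control samples and 33.9, 35.99 and 37.5 CPM with WNK463, at 0.65 (SE 0.07, edgeR adjusted p = 4.6e-07). KIF13B and KIF16B, of the kinesin-3 family, were at 0.51 (edgeR adjusted p = 3.1e-04) and 0.49 (7.2e-04), and KIF16B is known as a motor of early endosomes. The groups were separate in all 4 genes.

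Kinesin-3 also held both transport kinesins that fell. KIF1C, which carries vesicles and mRNA, had 77.9, 79.3 and 74.6 CPM in the Control samples and 60.1, 56.4 and 59.4 CPM with WNK463 and was at -0.40 (SE 0.06, edgeR adjusted p = 6.5e-06), though not called on the TPM scale (-0.30, limma adjusted p = 0.058). KIF1A, a motor of synaptic vesicle precursors, was near the limit of detection with 1.52, 0.754 and 1.04 CPM in the Control samples and 0.121, 0.233 and 0.319 CPM with WNK463, so that its log2 fold change of -2.28 (SE 0.50, edgeR adjusted p = 5.0e-04) rests on few counts. KIF1B was at -0.18 (95% interval -0.43 to 0.08). KIF21B had 111, 103 and 95.7 CPM in the Control samples and 109, 104 and 106 CPM with WNK463, which overlapped, and a log2 fold change of 0.04 (-0.08 to 0.16). KIF21A and KIFC3 were near 1 CPM and not called, at 0.69 and 0.54. KIFC3 was called higher on the TPM scale, at 0.63 (limma adjusted p = 0.0024).

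In summed TPM the mitotic kinesins went from 614 ± 24.6 to 506 ± 4.66 and the transport kinesins from 147 ± 4.23 to 194 ± 8.32 (SD, n = 3 each). These are log2 differences of -0.28 and 0.40, where the median of all genes on the TPM scale was 0.16. The ratio of mitotic to transport kinesins was 4.10, 4.29 and 4.16 in the Control samples and 2.52, 2.60 and 2.71 with WNK463. It was lower in all 3 WNK463 samples than in any Control sample (exact two-sided permutation p = 0.1, the smallest possible).

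Among the other kinesins, KIF24, which keeps centrioles from growing a cilium, had 31.1, 30.6 and 30.7 CPM in the Control samples and 14.4, 12.3 and 11.8 CPM with WNK463. Its groups did not overlap, and its log2 fold change was -1.26 (SE 0.09, edgeR adjusted p = 9.5e-10). KIF27, a relative of the Hedgehog pathway regulator KIF7, went the other way with 7.55, 7.54 and 7.07 CPM in the Control samples and 13.5, 14.7 and 13.5 CPM with WNK463, at 0.91 (SE 0.11, edgeR adjusted p = 1.3e-06). KIF2A, a depolymerase related to KIF2C, had 100.3, 122 and 121 CPM in the Control samples and 136, 141 and 135 CPM with WNK463 and rose by 0.27 (SE 0.06, edgeR adjusted p = 0.0014), while KIF2C fell. In TPM the ratio of KIF2A to KIF2C was 0.379, 0.468 and 0.450 in the Control samples and 0.795, 0.698 and 0.675 with WNK463. KIF9 and KIF26B were not called, at -0.17 (95% interval -0.61 to 0.27) and -0.01 (-0.51 to 0.48). KIF7 had 5, 4 and 9 counts in the Control samples and 2, 0 and 0 with WNK463, and was called lower without the filter on low counts (edgeR adjusted p = 0.014). The pseudogene TUBA3FP, with 5 counts in each Control sample and 10, 15 and 12 with WNK463, was called higher at 1.22 (SE 0.46, edgeR adjusted p = 0.024), but not with DESeq2 (adjusted p = 0.095) and not in 5 of the 6 fits that left out a sample.

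The 113 tested genes of 7 lists of proteins that work with kinesins and tubulins had 33 higher and 53 lower calls, or 45 and 43 on total-count scaling, and a median of -0.16, and 76.1% of them were called against 70.8% of all genes. The 20 spindle partners had 14 lower and 4 higher calls, or 90% called (3 higher with DESeq2), and a median of -0.36 (-0.21 with total counts). TACC3, which with CKAP5 bridges spindle fibres, was at -0.90 (SE 0.05, edgeR adjusted p = 2.1e-11), and SPAG5, a protein of kinetochores and poles, at -0.82 (SE 0.05, edgeR adjusted p = 3.2e-10). INCENP, the scaffold of the chromosomal passenger complex that KIF20A carries, was at -0.75 (SE 0.05, edgeR adjusted p = 8.8e-10). The 4 that rose were HMMR, ASPM, ECT2 and CENPE, at 0.40, 0.38, 0.30 and 0.25, and they were named after their values were seen. CENPE is itself a kinesin, whose symbol does not begin with KIF.

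In the list of ring and augmin genes 10 of 13 were lower and 1 higher, with a median of -0.38, where scaling by total counts left 7 lower. Calls made up 84.6% of this list and 70.8% of all genes. Augmin places gamma-tubulin rings on existing microtubules, and its subunits HAUS7, HAUS5 and HAUS8 had log2 fold changes of -1.27 (SE 0.10, edgeR adjusted p = 2.7e-09), -0.85 (SE 0.08, edgeR adjusted p = 5.2e-08) and -0.60 (SE 0.09, edgeR adjusted p = 7.5e-06). MZT1, a small ring subunit, was the one that rose, at 0.41. HAUS7 had 28.5, 27.4 and 25.3 CPM in the Control samples and 10.4, 10.6 and 12.6 CPM with WNK463, without overlap.

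The cargo partners of transport kinesins had 6 higher and 3 lower calls among 10, with a median of 0.28 (6 and 2 with total counts). Thus 90% of them were called, beside 70.8% of all genes. KLC4, a light chain that binds cargo for KIF5, had 7.85, 9.19 and 7.26 CPM in the Control samples and 26.03, 31.5 and 27.2 CPM with WNK463. Its values did not overlap and its log2 fold change of 1.81 (SE 0.11, edgeR adjusted p = 1.2e-10) was of the size seen for KIF5C. The main light chain KLC1 fell, from 97.00 ± 4.69 to 70.1 ± 4.49 CPM (SD, n = 3 each), at -0.47 (SE 0.06, edgeR adjusted p = 1.8e-06). KIFBP, which binds kinesin motor domains and keeps them off microtubules, was at -0.66 (SE 0.09, edgeR adjusted p = 5.0e-06).

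Dynein and dynactin form the motor of the opposite direction. Of their 21 genes 8 were higher and 5 lower, so that 61.9% were called beside 70.8% of all genes, with a median of 0.08, and 14 and 3 were called with total counts. DCTN4, a dynactin subunit, rose by 0.52 (SE 0.05, edgeR adjusted p = 1.7e-08), and the dynein light chains DYNLT1 and DYNLRB1 were at 0.46 and -0.45. DYNC1H1, the heavy chain that holds the motor, had 573, 529 and 509 CPM in the Control samples and 551, 506 and 536 CPM with WNK463, and its log2 fold change of -0.02 had a 95% interval of -0.12 to 0.09.

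Of 17 genes for tubulin folding 10 were lower and 4 higher (8 and 4 with total counts), with a median of -0.23. So 82.4% were called, beside 70.8% of all genes. TCP1 and CCT5, subunits of the chaperonin, were at -0.62 (SE 0.05, edgeR adjusted p = 1.0e-09) and -0.58 (SE 0.04, edgeR adjusted p = 1.4e-09). CCT8 was the only one of the 8 chaperonin subunits that rose, at 0.18 (edgeR adjusted p = 0.0011), and PFDN4, a prefoldin subunit that hands nascent chains to it, rose by 0.73 (SE 0.11, edgeR adjusted p = 1.7e-05).

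Of 16 genes of tubulin autoregulation and modification 6 were called higher and 6 lower, beside 35.5% and 35.3% of all genes. TTC5, the reader of the nascent tubulin chain, had 28.7, 25.9 and 22.3 CPM in the Control samples and 15.5, 16.5 and 13.9 CPM with WNK463. It fell without overlap of the groups, at -0.74 (SE 0.10, edgeR adjusted p = 5.0e-06). SCAPER, which links TTC5 to the deadenylase, was at 0.04 (95% interval -0.25 to 0.33), and the deadenylase subunit CNOT11 was at -0.29 (edgeR adjusted p = 9.9e-05). TPGS2 and TPGS1, both subunits of the tubulin polyglutamylase, went apart. TPGS2 had 104, 105 and 110.4 CPM in the Control samples and 39.9, 36.9 and 39.8 CPM with WNK463, at -1.46 (SE 0.06, edgeR adjusted p = 4.8e-13), and TPGS1 had 8.22, 5.83 and 7.26 CPM in the Control samples and 13.95, 13.4 and 14.2 CPM with WNK463, at 0.95 (SE 0.13, edgeR adjusted p = 3.2e-06). TTLL12 fell by 1.03 on the log2 scale (SE 0.05, edgeR adjusted p = 3.5e-12), and TTL, which adds tyrosine to alpha tubulin, rose by 0.43 (SE 0.06, edgeR adjusted p = 5.7e-06).

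Of 16 plus-end and lattice proteins 4 were higher and 5 lower, with a median of 0.03, and 9 and 5 with total counts. With TMM scaling 56.25% were called, beside 70.8% of all genes. SPAST, which cuts microtubules, had 51.5, 50.1 and 51.05 CPM in the Control samples and 94.9, 93.5 and 99.3 CPM with WNK463, without overlap and at 0.91 (SE 0.06, edgeR adjusted p = 1.0e-10). FIGNL1, a related ATPase known also from DNA repair, was at -0.85 (SE 0.08, edgeR adjusted p = 5.1e-08), and CLIP1, which rides on growing plus ends, at 0.62 (SE 0.06, edgeR adjusted p = 1.2e-07). MAPRE1, the abundant end-binding protein, had 261, 258 and 264 CPM in the Control samples and 254, 254 and 264 CPM with WNK463, and its log2 fold change of -0.02 had a 95% interval of -0.12 to 0.07.

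**Figure D5:**
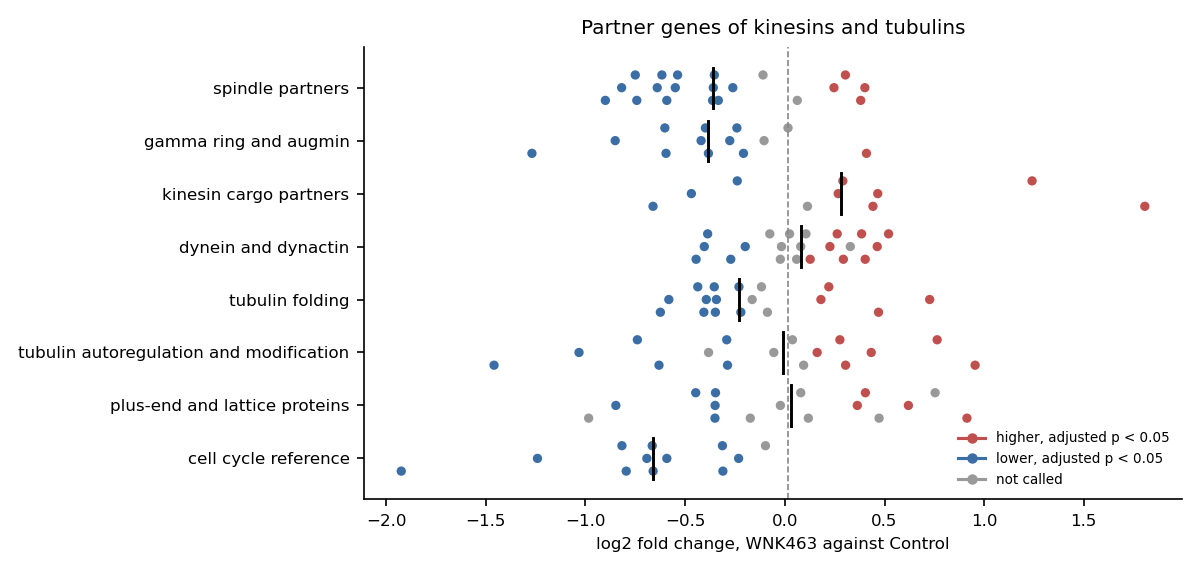
Log2 fold changes (WNK463 against Control, x axis) of the tested genes of 7 partner lists and of the cell cycle reference, 1 point per gene, with the median of each list as a black bar and that of all tested genes, 0.02, as a dashed line. The medians of spindle partners, ring and augmin genes, folding genes and cell cycle genes lie to the left, at -0.36, -0.38, -0.23 and -0.66, and that of cargo partners to the right, at 0.28.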

How the data were processed

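RNA-seq was performed on 3 Control and 3 WNK463 samples of MV4-11 cells, grouped by their labels. Per the labels, fastp, Bowtie2, HISAT2, StringTie and RSEM were among the tools and GRCh38 was the build. Their versions, the read length and the strand setting are not given in the sources used here. The authors deposited an estimated count and a TPM value per gene and sample for 20348 genes, and the deposited columns of fold changes and p-values were not used. Estimated counts were whole numbers on deposit, and their totals ran from 14915745 to 17411780 per sample, which limits the precision for genes of few counts. edgeR 4.0.16 (R 4.3.3) was run with TMM scaling, filterByExpr and the quasi-likelihood test on all genes, with the group as the only term, and a call needed a Benjamini-Hochberg adjusted p below 0.05. Alternatives were DESeq2 1.42.0, limma 3.58.1 on log2(TPM + 1) or log2(TPM + 0.1), scaling by total counts, other filters, a replicate block and leaving out each sample. The script was tested on simulated data.

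The members, roles and gene lists were chosen with earlier results of these data known. Full statistics were given for the 3 called members of each role with the largest change and a mean CPM of at least 1, the 2 with the highest mean TPM, those past 2-fold, and up to 3 genes of each partner list. Other genes, and the ratios within samples, were named or chosen after their values were seen. Positions and coding starts are from GENCODE 29, and promoters from RefSeq, GRCh38.p14. Levels of different genes were compared in TPM only.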

Additional observations from a re-analysis of the deposited data

How the results depend on the processing

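Over 59 tested members and 14 alternatives, 34 members kept their direction and their side of the threshold in each alternative that could be run for them. At least 2-fold change was required of the called genes in one alternative, which left 12 members, 0 mitotic kinesins and 3 transport kinesins. The number of called cofactors rose from 2 to 4 with scaling by total counts and with limma on log2(TPM + 1) or log2(TPM + 0.1). With total counts the medians were 0.043 for all members, -0.27 for mitotic kinesins, 0.64 for transport kinesins and -0.996 for alpha and beta tubulins. With limma on log2(TPM + 1) and log2(TPM + 0.1) they were 0.029 and 0.082 for all members, -0.19 in both for mitotic kinesins and -0.93 and -0.94 for alpha and beta tubulins. Limma on log2(TPM + 1) without a filter gave 0.029, -0.19 and -0.12 for these groups, and edgeR without a filter gave -0.35 for alpha and beta tubulins, as 3 scarce beta tubulins joined the list in both. TUBA8 turned to 0.23 and 0.24 with the TPM pseudocounts of 1 and 0.1, TUBGCP6 to 0.21 with that of 0.1, and TUBGCP3 to 0.0033 with total counts, 0.0013 with limma on log2(TPM + 1), with or without a filter, and 0.0014 with a pseudocount of 0.1. For changes other than those of the filters the cause was not tested.

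Leaving out each sample in turn gave medians of -0.13 to -0.066 for all members, -0.47 to -0.40 for mitotic kinesins, 0.27 to 0.49 for transport kinesins and -1.17 to -1.13 for alpha and beta tubulins, and 37 to 40 called members. Same-numbered samples showed no common deviation from their group means (correlations of 0.02, -0.01 and -0.05), so that the numbers were not taken as pairs. With the replicate number as a block 41 members were called, 11 mitotic and 9 transport kinesins among them, as KIF20B joined (-0.22, edgeR adjusted p = 0.041). Depth limits the genes of few counts. TUBB2A, TUBB8, TUBB8B and KIF7 were dropped by the filter, and without it TUBB8 and TUBB8B were called higher and KIF7 lower.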
